A study of Mus musculus with 18 samples.

Results

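The unfolded protein response and the integrated stress response were followed in the liver through 35 genes, chosen by name from the 25266 genes listed for each mouse. They comprised 14 chaperones and folding enzymes of the endoplasmic reticulum (ER), 7 genes of ER-associated degradation, 4 sensors and transcription factors of the unfolded protein response, 9 genes of the arm of ATF4 and CHOP, and Crebrf, whose protein regulates a transcription factor of the CREB3 family. Liver RNA of 18 male C57BL/6 mice was sequenced. FF mice carry both Ppp6r3 alleles flanked by loxP sites, and this gene encodes SAPS3, a regulatory subunit of protein phosphatase 6. LKO mice carry the same floxed alleles and Cre under the control of the albumin promoter. That promoter works in hepatocytes, and which other cells of the liver keep the gene was not measured. FF mice have no Cre, and the presence of Cre and the loss of Ppp6r3 cannot be told apart. From 8 weeks of age the mice ate either a control diet (CD, with 10 kcal% of its energy as fat) or a high-fat diet (HFD, with 32.5 kcal%) for 16 weeks, which gave 4 FF CD, 4 LKO CD, 5 FF HFD and 5 LKO HFD mice. Each value is a gene's RPKM, its reads scaled to transcript length and to the mapped reads of the library.

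Ppp6r3 itself was at 8.38 to 10.98 RPKM in FF CD mice and 7.55 to 8.82 in FF HFD mice, against 3.88 to 4.08 in LKO CD mice and 4.22 to 4.87 in LKO HFD mice, so every LKO mouse lay below every FF mouse of its diet. Alb, the gene of albumin and a defining hepatocyte product, was at 21308 to 29429.5 RPKM in FF CD, 28682 to 36965 in LKO CD, 27009.7 to 35707 in FF HFD and 26534 to 36150.2 in LKO HFD mice. The steps between low RPKM values correspond to 23.4 to 37.0 M reads per mouse, with FF CD mouse 3 lowest and FF HFD mouse 1 highest. All 35 members passed the filter on low values (a mean of at least 0.5 RPKM over the 18 mice), as did 11090 genes in all. Differences were fitted with limma on log2(RPKM + 1), so that the change of a weakly expressed gene is understated. A gene was called where the Benjamini-Hochberg adjusted p was under 0.05 and the fold change above 1.5. The limma p-values weigh a difference against one spread between mice, pooled over all 4 groups and drawn towards that of genes at similar levels. The groups did not spread alike: Hsp90b1, for one, varied far more among LKO HFD than among LKO CD mice. The pooled spread can therefore understate the error of a difference that involves LKO HFD mice. In whole liver, fewer cells of a type and less RNA per cell cannot be told apart.

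The unfolded protein response is the reaction of a cell to misfolded protein in the ER, and hepatocytes, which secrete most plasma proteins, rely on it. It has 3 sensors in the ER membrane. IRE1 (gene Ern1) splices Xbp1 RNA into the form that encodes an active transcription factor. ATF6 is itself cut into a transcription factor, and PERK (gene Eif2ak3) slows translation, which favours the translation of ATF4. XBP1 and ATF6 raise chaperones and the machinery that pulls misfolded proteins out of the ER for degradation, whereas ATF4 and its partner CHOP (gene Ddit3) raise amino acid synthesis, tRNA charging and, when stress lasts, cell death genes. ATF4 is also reached by sensors outside the ER, which is the integrated stress response. RPKM of a whole gene does not separate spliced from unspliced Xbp1 and does not show how much ATF4 protein is made.

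Promoters of such genes can hold short sequences that these factors bind, and a match to their letters is a description of the sequence only. In windows from 250 bases before to 50 bases after the gene start (RefSeq, GRCm38.p6, the build of all coordinates given here; 31 of the 35 members had one), both strands were searched for the ER stress response element ERSE, here CCAAT and CCACG separated by 9 bases, which ATF6 binds with the CCAAT factor NF-Y. ERSE was found in 7 of 12 chaperone promoters (58.3%) and 2 of 6 degradation promoters (33.3%), in none of the 9 promoters of the ATF4 and CHOP arm, and in 37 of the 27025 genes of the table (0.137%). Gene positions given below came from GENCODE, another gene annotation, whose gene starts can differ from the RefSeq starts used for the windows. The stretches of Hspa5, Asns and Atf3 thus overlap the gene spans given below. The following stretches hold ERSE and belong to members chosen to be given in full below, whether called or not. Dnajc3 and Canx also hold ERSE and are not shown. Capitals mark the conserved bases of ERSE, which on the opposite strand read CGTGG and ATTGG, and in Hspa5 also the core TGACGTG of the UPR element bound by XBP1 and ATF6.
Hspa5 (chr2:34771921-34772055, + strand): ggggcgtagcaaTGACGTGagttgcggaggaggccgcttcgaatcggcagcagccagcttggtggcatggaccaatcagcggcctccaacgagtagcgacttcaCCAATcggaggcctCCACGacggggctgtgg
Hsp90b1 (chr10:86705521-86705668, - strand): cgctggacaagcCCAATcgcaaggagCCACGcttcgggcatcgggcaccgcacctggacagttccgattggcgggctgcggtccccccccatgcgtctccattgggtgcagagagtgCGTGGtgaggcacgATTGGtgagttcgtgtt
Pdia6 (chr12:17266479-17266521, + strand): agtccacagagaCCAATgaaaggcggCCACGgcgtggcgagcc
Creld2 (chr15:88819508-88819550, + strand): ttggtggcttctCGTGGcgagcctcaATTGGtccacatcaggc
Calr (chr8:84847063-84847105, - strand): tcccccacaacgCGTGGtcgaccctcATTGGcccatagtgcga
Derl3 (chr10:75893230-75893272, + strand): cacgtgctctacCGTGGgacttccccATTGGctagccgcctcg
Syvn1 (chr19:6046520-6046562, + strand): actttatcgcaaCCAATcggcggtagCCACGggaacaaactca

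Hspa5 was the only member with the core TGACGTG, which 601 of the 27025 genes (2.22%) hold, and Hsp90b1 held 2 ERSE copies on opposite strands. ERSE-II, ATTGG and CCACG separated by 1 base, which shares its CCACG with ERSE, was found in Dnajb11 and Herpud1 and in 12 of the 27025 genes (0.0444%). The composite element of ATF4 and CHOP in its full form, TGATG and AAT separated by 1 base, was found in no member and in 293 genes of the table (1.08%). A looser form that ends in AA, chosen after that result was seen, was found in 4 of the 9 genes of the ATF4 and CHOP arm (Asns, Atf3, Chac1 and Trib3), in Herpud1, and in 1219 of the 27025 genes (4.51%). Those of Asns, Atf3 and Chac1 are shown with the conserved bases in capitals.
Asns (chr6:7693213-7693244, - strand): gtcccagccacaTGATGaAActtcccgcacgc
Atf3 (chr1:191183424-191183455, - strand): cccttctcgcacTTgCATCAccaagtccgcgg
Chac1 (chr2:119351037-119351068, + strand): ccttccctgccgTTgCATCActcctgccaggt

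**Figure D1:**
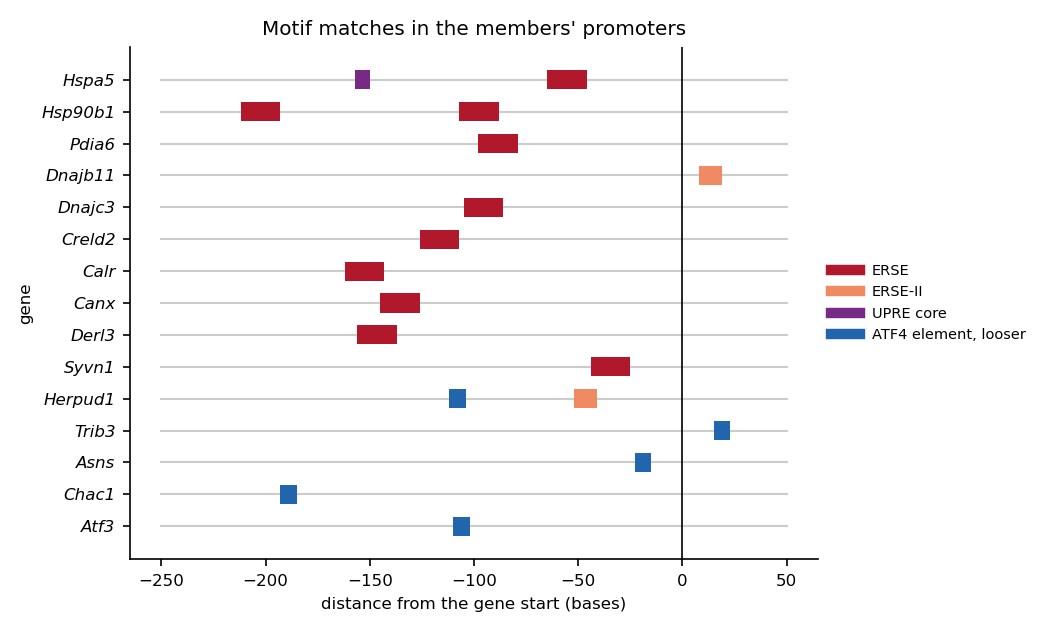
Positions of the motif matches in the promoters of the 15 members that hold any, in bases from the gene start (vertical line), with one grey line for each window from 250 bases before to 50 after the start and colours for the motifs. ERSE lies between positions -212 and -26 in 7 chaperone and 2 degradation genes, and the looser ATF4 element is in genes of the ATF4 and CHOP arm and in Herpud1.

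The comparison of the 4 groups asked whether the chaperone and degradation genes and the targets of ATF4 and CHOP moved together with diet and with the loss of SAPS3. Under HFD, 12 of the 35 members were higher in LKO than in FF mice and none was lower, where 0.902% of all genes tested were called higher. Of all genes called in that comparison, 43.5% were higher and the others lower. By the adjusted p alone, 14 members were higher, against 2.1% of all genes. The 12 were 8 of 14 chaperones and folding enzymes (Hspa5, Hsp90b1, Pdia3, Pdia4, Pdia6, Dnajb11, Sdf2l1 and Manf), Derl3 of 7 degradation genes, Xbp1 of 4 sensors and factors, and Atf4 and Asns of 9 genes of the ATF4 and CHOP arm. Calr and Dnajc3 passed the adjusted p at a fold change below 1.5. In 7 members (20%) every LKO HFD mouse lay above every FF HFD mouse, against 2.65% of all genes: Dnajc3, Sdf2l1, Calr, Canx, Xbp1, Atf4 and Asns. Under CD no member was called in LKO against FF mice by limma, where 0.0902% of all genes were called higher and 0.135% lower. There, 2 members, Dnajb9 and Atf4, had an unadjusted limma p under 0.05, which chance gives in a share of 0.05 of unchanged genes. For Manf and Psat1 every LKO CD mouse lay below every FF CD mouse. The share of all genes with no overlap under CD was not computed. The lack of overlap for Manf and Psat1, neither of them called, therefore does not show that members differed there more often than other genes. Psat1 was at 0.413 to 0.593 RPKM in FF CD and 0.256 to 0.306 in LKO CD mice.

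Diet was then compared within each genotype. In FF mice, HFD lowered Dnajb9, Manf, Xbp1 and Asns, 4 of 35 members against 1.49% of all genes, and raised Atf3 alone, 1 of 35 members against 5.11%. By the adjusted p alone 6 members were lower, with Derl2 and Atf4 added, against 4.79% of all genes, and 2 were higher, with Sesn2 added, against 15.8%. In LKO mice, HFD raised Hsp90b1, Pdia4, Sdf2l1, Derl3 and Xbp1, 5 of 35 members against 0.965% of all genes, and lowered none. Of all genes called by diet in LKO mice, 75.9% were higher and the others lower. Pdia3 and Calr were also higher by the adjusted p alone, which made 7 members against 3.44%. The difference between the diet effects of LKO and FF mice, tested as an interaction, was positive and called for Sdf2l1, Manf, Calr and Xbp1, 4 members against 0.947% of all genes. By the adjusted p alone these 4 passed against 1.14%. The largest interactions among the members, Asns at 1.78 and Creld2 at 1.77, did not pass. The 2 comparisons that involve LKO HFD mice share those mice, as the 2 that involve FF HFD mice share theirs, and the interaction uses all 4 groups, so these counts are not separate evidence.

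LKO HFD mice 3 and 5 had the highest levels of most chaperones: mouse 3 was the highest of the 18 mice for 10 of the 14 and mouse 5 for 3, and FF CD mouse 1 was the highest for Dnajb9. Without these 2 mice, a setting chosen after the values were seen, Xbp1 was the only member called higher in LKO HFD than in FF HFD mice, none was called between LKO HFD and LKO CD mice, and Xbp1 alone kept its interaction. In the same fit, 0.857% of all genes were called between the genotypes under HFD, in either direction. By diet in LKO mice 0.0541% of all genes were called, and for the interaction 1.46%. The number of members called between LKO and FF mice under HFD was 3 if LKO HFD mouse 3 was left out. It was 4 if LKO HFD mouse 5, FF HFD mouse 3 or FF HFD mouse 5 was left out, 5 for FF HFD mouse 2, 6 for FF HFD mouse 4 and 16 for LKO HFD mouse 1. By diet in LKO mice the count was 0 if LKO CD mouse 1, 2 or 3 or LKO HFD mouse 3 was left out, 1 for LKO CD mouse 4, 2 for LKO HFD mouse 4 or 5, 3 for FF HFD mouse 2 and 11 for LKO HFD mouse 1. In FF mice it was 3 if FF CD mouse 1 or FF HFD mouse 5 was left out. The count of interactions was 1 without any one of FF CD 1, FF CD 2, FF HFD 2, FF HFD 3, FF HFD 5, LKO CD 2, LKO CD 4, LKO HFD 3 and LKO HFD 5, and 12 without LKO HFD mouse 1. The share of all genes called with single mice left out is not given. These counts therefore do not show whether the members moved apart from other genes. Between genotypes under HFD, all 14 chaperones kept a positive difference without LKO HFD mice 3 and 5, with Dnajb9 at 0.0066. Its sign turned under 2 other scalings of the RPKM of all 18 mice.

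**Figure D2:**
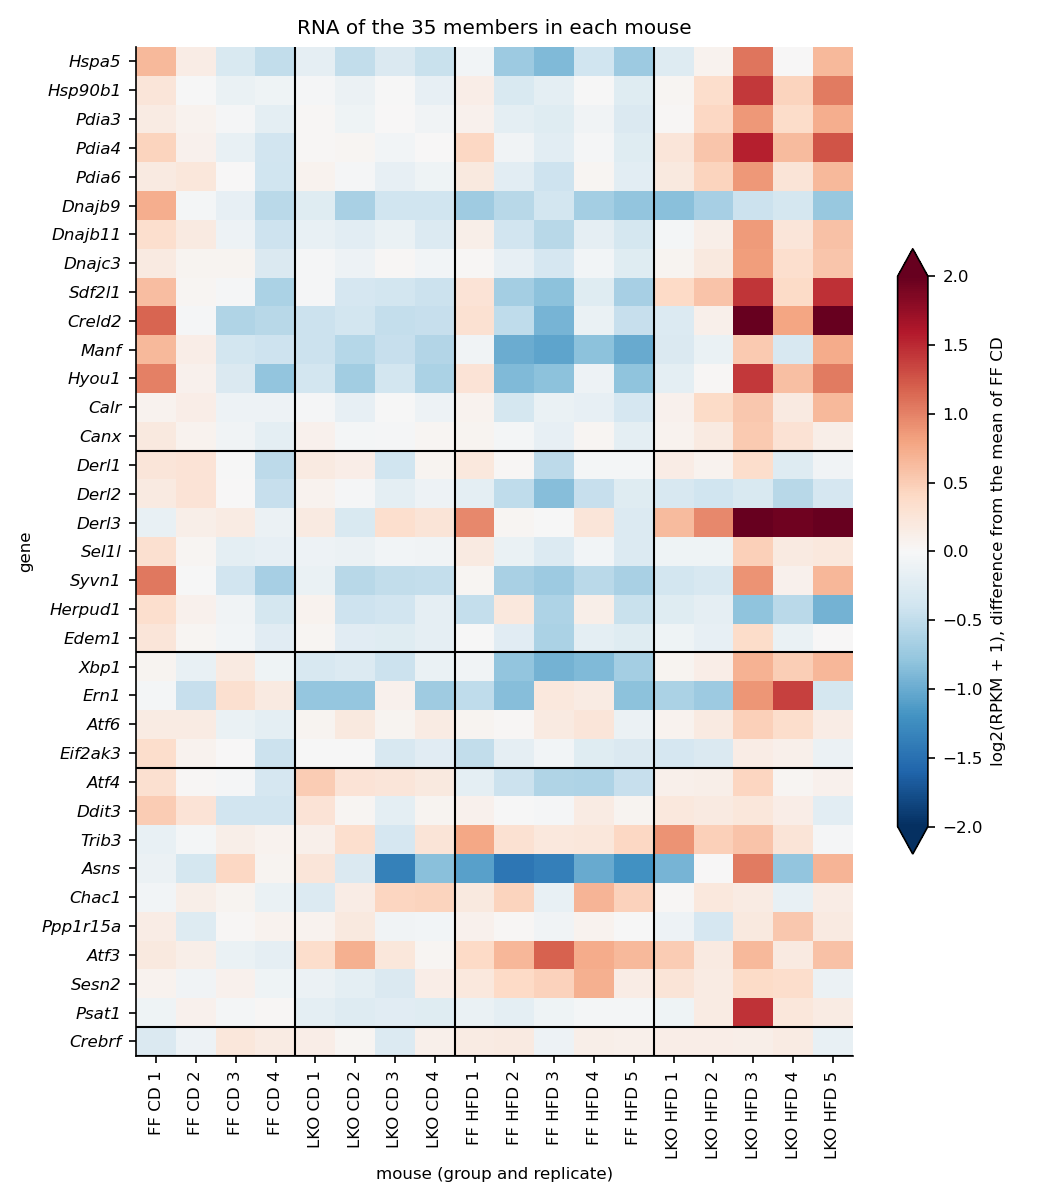
Heat map of the 35 members (rows, by class) in the 18 mice (columns, by group), with colour for log2(RPKM + 1) less the FF CD mean. Chaperone rows are highest in LKO HFD mice 3 and 5 and low in most FF HFD mice, and no such block is seen in the rows of the ATF4 and CHOP arm.

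Among the chaperones, Hspa5 encodes BiP, the ER form of HSP70 that binds unfolded protein and keeps the sensors inactive. Hspa5 (chr2:34771970-34777547, + strand) was at 357, 251, 183 and 159.9 RPKM in the FF CD mice and 199, 161, 185 and 166 in the LKO CD mice. Under HFD, Hspa5 was at 219, 136, 122, 171 and 136 RPKM in FF and 189.7, 237, 476, 228 and 355 in LKO mice. LKO HFD mouse 3 was highest, FF CD mouse 1 and LKO HFD mouse 5 followed, the lowest values were those of FF HFD mice, and the LKO HFD and FF HFD groups overlapped. The log2 difference of LKO HFD from FF HFD mice was 0.87 ± 0.24 (SE; adjusted p = 0.0482), a fold change of 1.82, and it fell to 0.50 (adjusted p = 0.331) without LKO HFD mice 3 and 5. When single mice were left out, the Hspa5 difference ran from 0.68 (without LKO HFD mouse 3) to 1.01 (without LKO HFD mouse 1). It passed in 4 of 18 such fits, with an adjusted p of at most 0.138. Its difference by diet was -0.56 in FF mice (adjusted p = 0.129) and 0.66 in LKO mice (adjusted p = 0.140).

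Hsp90b1 encodes GRP94, the HSP90 of the ER, and carries the 2 ERSE copies printed above. Hsp90b1 (chr10:86690209-86705509, - strand) was at 313, 263, 241 and 250 RPKM in the FF CD mice and 262, 244, 265 and 236 in the LKO CD mice. Under HFD, Hsp90b1 was at 290.3, 214, 231, 263 and 225 RPKM in FF and 274, 340.2, 709, 359.9 and 545 in LKO mice. The means under HFD were 245 ± 31.2 RPKM in FF (SD, n = 5) and 446 ± 178 in LKO mice (SD, n = 5), and the groups overlapped. LKO HFD mice were higher than FF HFD mice by 0.78 ± 0.19 on the log2 scale (adjusted p = 0.0260) and higher than LKO CD mice by 0.74 ± 0.20 (adjusted p = 0.0465). FF HFD and FF CD mice differed by -0.13 (adjusted p = 0.706). Without the 2 mice the difference between genotypes was 0.41 (adjusted p = 0.137). With 1 mouse left out at a time, the Hsp90b1 difference ran from 0.59 (without LKO HFD mouse 3) to 0.94 (without LKO HFD mouse 1). It passed in 13 of 18 such fits, with an adjusted p of at most 0.0742.

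The protein disulfide isomerases, which form and shuffle disulfide bonds, rose with them. Pdia4 (chr6:47796141-47813430, - strand) was at 78.1, 60.8, 51.2 and 43.4 RPKM in the FF CD mice and 57.8, 58.6, 55.01 and 57.03 in the LKO CD mice. Under HFD, Pdia4 was at 76.2, 54.3, 48.9, 55.8 and 48.3 RPKM in FF and 67.6, 83.9, 169.95, 89.02 and 137 in LKO mice. Pdia4 was 1.83-fold higher in LKO HFD than in FF HFD mice (log2 difference 0.88 ± 0.21, adjusted p = 0.0243) and 1.797-fold higher than in LKO CD mice (adjusted p = 0.0408). Pdia3, which acts on glycoproteins held by calreticulin and calnexin, and Pdia6 rose by 0.62 ± 0.13 and 0.60 ± 0.14 in LKO against FF mice under HFD (fold 1.54 and 1.52, adjusted p = 0.0109 and 0.0249). When single mice were left out, the Pdia4 difference ran from 0.70 (without LKO HFD mouse 3) to 1.03 (without LKO HFD mouse 1). It passed in 12 of 18 such fits, with an adjusted p of at most 0.0689. Under HFD, Pdia3 ranged from 119.9 to 156 RPKM in FF and from 149.9 to 269 in LKO mice, and Pdia6 from 63.8 to 98.2 and from 98.2 to 157. In FF CD and LKO CD mice Pdia3 ranged from 128 to 164 and from 138 to 150.2 RPKM, and Pdia6 from 64.4 to 99.7 and from 76.01 to 89.4. Their diet differences in LKO mice were 0.51 ± 0.14 and 0.53 ± 0.15 (adjusted p = 0.0436 and 0.0566). Without the 2 mice the differences of Pdia3, Pdia4 and Pdia6 were 0.41, 0.50 and 0.42 (adjusted p from 0.103 to 0.1997).

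Sdf2l1 encodes a partner of BiP and of the ER DNAJ proteins that keeps unfolded protein from aggregating. Sdf2l1 (chr16:17130138-17132383, - strand) was at 19.4, 12.6, 12.03 and 7.62 RPKM in the FF CD mice and 12.1, 9.48, 9.27 and 8.92 in the LKO CD mice. Under HFD, Sdf2l1 was at 15.1, 7.27, 6.5001, 10.3 and 7.37 RPKM in FF and 16.6, 18.7, 34.9, 16.2 and 35.8 in LKO mice. Every LKO HFD mouse lay above every FF HFD mouse. The log2 difference was 1.28 ± 0.26 between the genotypes under HFD (fold 2.42, adjusted p = 0.00911; exact permutation p = 0.00794, two-sided). It was 1.14 ± 0.27 by diet in LKO mice (adjusted p = 0.0323) and -0.43 ± 0.27 by diet in FF mice (adjusted p = 0.295), and the 2 diet effects differed by 1.57 ± 0.39 (adjusted p = 0.0361). Without LKO HFD mice 3 and 5 the difference between genotypes was 0.88 (adjusted p = 0.103). Leaving out 1 mouse at a time, the Sdf2l1 difference ran from 1.12 (without LKO HFD mouse 5) to 1.45 (without FF HFD mouse 1). It passed in 18 of 18 such fits, with an adjusted p of at most 0.0350.

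Manf, a secreted ER protein that binds BiP and is released under ER stress, moved with both diet and genotype. Manf (chr9:106838312-106891979, - strand) was at 117, 81.99, 57.2 and 55.4 RPKM in the FF CD mice and 55.003, 49.7, 53.98 and 49.2 in the LKO CD mice. Under HFD, Manf was at 70.8, 36.7, 35.2, 41.7 and 36.4 RPKM in FF and 60.7, 67.7, 108, 59.5 and 126 in LKO mice. FF HFD mouse 1 stood apart from the other 4 mice of its group, and LKO HFD and FF HFD mice overlapped through it. Manf was lower under HFD in FF mice, with a log2 difference of -0.79 ± 0.25 (adjusted p = 0.0338), LKO mice were higher under HFD by 0.90 ± 0.24 (adjusted p = 0.0414), and the diet effects differed by 1.41 ± 0.36 (adjusted p = 0.0386). Without the 2 LKO HFD mice the genotype difference was 0.55 (adjusted p = 0.3000). When single mice were left out, the Manf difference ran from 0.74 (without LKO HFD mouse 5) to 1.08 (without FF HFD mouse 1). It passed in 9 of 18 such fits, with an adjusted p of at most 0.119. The diet difference in FF mice was -0.57 without FF CD mouse 1 (adjusted p = 0.127), and it also did not pass without FF CD mouse 2 or FF HFD mouse 2, 3, 4 or 5.

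Calreticulin (Calr) and calnexin (Canx) hold newly made glycoproteins until they fold. Calr was at 366, 274, 319.8, 314 and 277 RPKM in the FF HFD mice and 374, 457, 512, 399 and 551 in the LKO HFD mice, with no overlap, a log2 difference of 0.56 ± 0.11 (fold 1.47, adjusted p = 0.00835). It was at 326 to 386 RPKM in FF CD and 314 to 347 in LKO CD mice, and without LKO HFD mice 3 and 5 the difference between genotypes under HFD was 0.40 (adjusted p = 0.0956). Calr differed by diet by 0.44 in LKO mice (adjusted p = 0.0424) and -0.18 in FF mice (adjusted p = 0.293), and the interaction was 0.63 ± 0.17 (adjusted p = 0.0488), which the fit without the 2 mice did not keep (adjusted p = 0.167). Canx also had no overlap under HFD, at 69.8 to 83.4 RPKM in FF and 83.9 to 116 in LKO mice, but its log2 difference was 0.30 (adjusted p = 0.0893).

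The DNAJ co-chaperones, which hand substrates to BiP, split. Dnajb11 differed by 0.62 ± 0.17 between LKO HFD and FF HFD mice (adjusted p = 0.0413) and Dnajc3, which also inhibits PERK, by 0.55 ± 0.13 (adjusted p = 0.0196), with Dnajc3 at 29.1 to 37.4 RPKM in FF and 38.4 to 67.1 in LKO mice. Dnajb11 was at 17.2 to 27.998 RPKM in FF and 25.1 to 47.4 in LKO mice under HFD, a fold change of 1.54, and at 19.1 to 32.7 and 21.2 to 23.3 RPKM in FF CD and LKO CD mice. The differences of Dnajb11 and Dnajc3 under HFD with LKO HFD mice 3 and 5 left out were 0.38 and 0.35 (adjusted p = 0.289 and 0.141). Dnajb9, which aids degradation and restrains IRE1, was at 73.8, 42.9, 39.1 and 30.1 RPKM in the FF CD mice, 27.7 to 37.1 in LKO CD, 24.9997 to 33.7 in FF HFD and 24.2 to 34.3 in LKO HFD mice. Dnajb9 was lower under HFD in FF mice (-0.62 ± 0.18, adjusted p = 0.0220), which became -0.38 without FF CD mouse 1 (adjusted p = 0.0713), and its difference between genotypes under HFD was 0.015 ± 0.17, whose sign turned when RPKM were rescaled to the same sum or each mouse was centred on its median.

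Creld2, a folding factor secreted under ER stress, and Hyou1, an ER nucleotide exchange factor, had large differences that did not pass. Creld2 was at 16.1, 8.67, 6.23, 11.5 and 8.98 RPKM in the FF HFD mice and 10.4, 13.9, 64.5, 22.9 and 57.9 in the LKO HFD mice, a log2 difference of 1.34 ± 0.43 (adjusted p = 0.0845). Hyou1 was at 31.99, 13.8, 14.4, 24.3 and 14.6 RPKM and 22.8, 26.8, 71.9, 40.3 and 55.3 RPKM in the same groups, a log2 difference of 1.05 ± 0.33 (adjusted p = 0.0789). In both genes LKO HFD mice 3 and 5 were the highest of their group, and without them the differences were 0.56 (adjusted p = 0.499) and 0.61 (adjusted p = 0.435). Under CD, Creld2 was at 8.11 to 30.02 RPKM in FF and 8.95 to 9.65 in LKO mice, and Hyou1 at 14.7 to 53.6 and 15.9 to 20.2. The diet differences in LKO mice were 1.43 ± 0.45 and 1.09 ± 0.35 (adjusted p = 0.0792 and 0.0802), and 0.64 and 0.65 without the 2 mice.

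**Figure D3:**
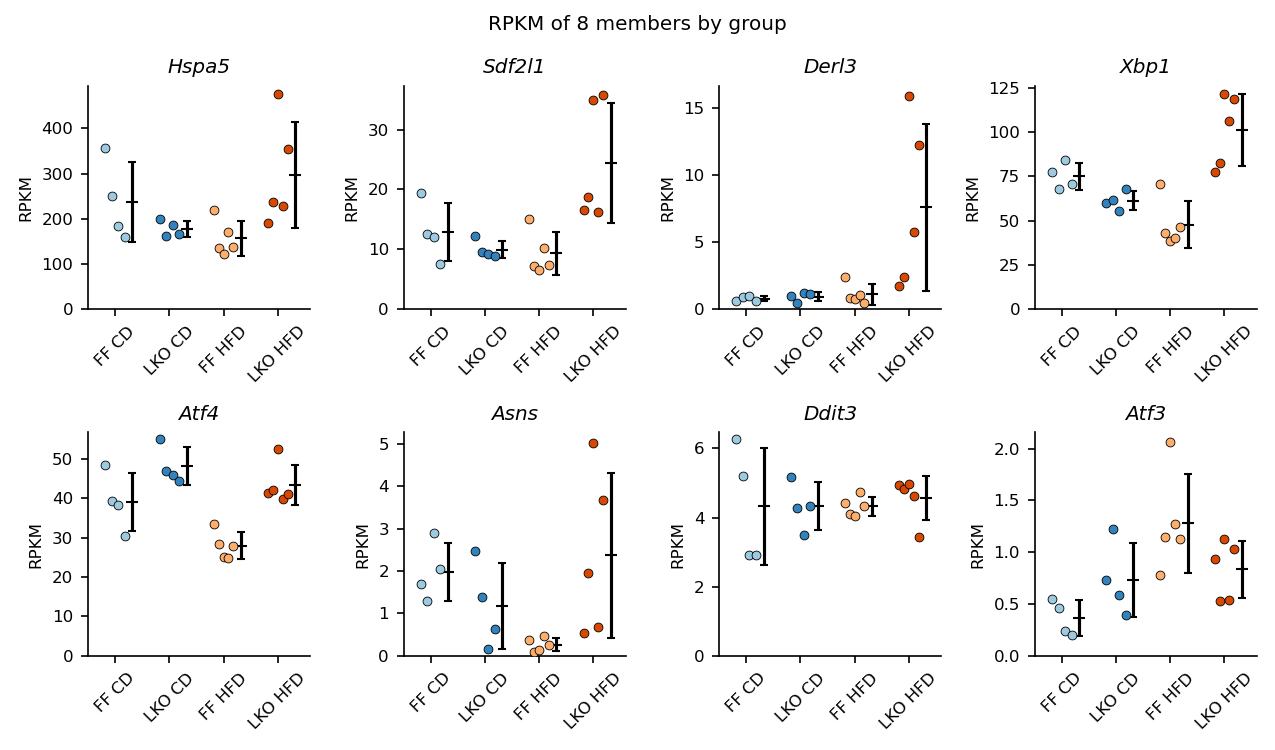
RPKM of the 18 mice (points) for 8 of the members described in the text, one panel a gene, with the 4 groups on the x axis, and the group mean and SD beside the points. In Xbp1, Sdf2l1, Atf4 and Asns the 5 LKO HFD points all lie above the 5 FF HFD points, and in Ddit3 the 4 groups overlap.

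Of the degradation genes, Derl3 alone was called. The derlins form part of the channel through which misfolded proteins leave the ER. Derl3 (chr10:75893413-75895941, + strand) was at 0.5796, 0.891, 0.954 and 0.616 RPKM in the FF CD mice and 0.986, 0.422, 1.21 and 1.09 in the LKO CD mice. Under HFD, Derl3 was at 2.42, 0.7996, 0.737, 1.07 and 0.442 RPKM in FF and 1.71, 2.39, 15.8, 5.76 and 12.2 in LKO mice. LKO HFD mice 3 and 5 were highest, LKO HFD mice 1 and 2 lay within the range of FF HFD mice, and the reads behind the values ran from 15 to 719 per mouse. LKO HFD mice were higher than FF HFD mice by 1.75 ± 0.38 (fold 3.37, adjusted p = 0.0157) and than LKO CD mice by 1.82 ± 0.41 (adjusted p = 0.0254). Without the 2 mice the former was 0.99 (adjusted p = 0.0995). With 1 mouse omitted at a time, the Derl3 difference ran from 1.42 (without LKO HFD mouse 3) to 2.08 (without LKO HFD mouse 1). It passed in 18 of 18 such fits, with an adjusted p of at most 0.0447.

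Syvn1, the ubiquitin ligase HRD1, was at 13.5, 8.01, 7.56, 8.696 and 7.98 RPKM in the FF HFD mice and 10.0003, 10.3, 25.3, 14.02 and 21.4 in the LKO HFD mice, a log2 difference of 0.70 ± 0.28 (adjusted p = 0.184), while its partner Sel1l differed by 0.26 ± 0.12 (adjusted p = 0.251). LKO HFD mice 3 and 5 were the highest of their group for Syvn1, and without them these differences were 0.31 and 0.12 (adjusted p = 0.664 and 0.700). Syvn1 was at 7.92 to 28.5 RPKM in FF CD and 8.59 to 11.9 in LKO CD mice, with diet differences of -0.51 in FF and 0.60 in LKO mice (adjusted p = 0.250 and 0.242). Edem1, which trims mannose from doomed glycoproteins, differed by 0.26 and Derl1 by 0.12 in the same comparison (adjusted p = 0.255 and 0.722), and by 0.13 and 0.063 without those 2 mice. Over the 18 mice Sel1l lay at 15.6 to 27.2 RPKM, Edem1 at 13.2 to 27.2, Derl1 at 21.9 to 40.95 and Herpud1 at 80.1 to 196. Derl2 was lower under HFD in FF mice (-0.45 ± 0.14, adjusted p = 0.0280), with 18.5 to 31.4 RPKM in FF CD and 13.9 to 22.4 in FF HFD mice. It was at 22.3 to 27.1 RPKM in LKO CD and 17.3 to 20.6 in LKO HFD mice, and LKO HFD and FF HFD mice differed by 0.073 (adjusted p = 0.799). The diet difference of Derl2 did not pass without FF CD mouse 1, 2 or 3 or FF HFD mouse 2, 3 or 4 (adjusted p up to 0.101). Herpud1, an adaptor of the HRD1 complex whose promoter holds both ERSE-II and the looser ATF4 element, was the degradation gene with negative differences throughout: -0.30 under HFD between genotypes (adjusted p = 0.397), -0.23 under CD (adjusted p = 0.903), and -0.24 and -0.32 by diet in FF and LKO mice (adjusted p = 0.411 and 0.364).

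Xbp1 had the smallest adjusted p of all 35 members between the genotypes under HFD. Xbp1 (chr11:5520659-5525893, + strand) was at 77.6, 67.7, 84.6 and 70.7 RPKM in the FF CD mice and 59.8, 61.9, 55.2 and 68.2 in the LKO CD mice. Under HFD, Xbp1 was at 70.9, 43.1, 38.3, 40.3 and 46.5 RPKM in FF and 77.7, 82.5, 122, 106 and 119 in LKO mice. Each of the 5 LKO HFD mice lay above each of the 5 FF HFD mice, and FF HFD mice lay lowest of the 4 groups by mean (47.8 ± 13.2 RPKM, SD, n = 5, against 101 ± 20.4 in LKO HFD, n = 5). Xbp1 was lower under HFD in FF mice (log2 difference -0.67 ± 0.16, adjusted p = 0.00746) and higher under HFD in LKO mice (0.70 ± 0.16, adjusted p = 0.0294), a difference between diet effects of 1.37 ± 0.23 (adjusted p = 0.00275). Under HFD LKO mice were 2.11-fold higher (1.08 ± 0.15, adjusted p = 0.000547; exact permutation p = 0.00794, the smallest that 5 against 5 mice allow), and under CD the difference was -0.29 ± 0.17 (adjusted p = 0.770). Without LKO HFD mice 3 and 5 the difference under HFD was 0.90 (adjusted p = 0.0162) and the interaction 1.19 (adjusted p = 0.0156), but the diet difference in LKO mice, 0.52, no longer passed (adjusted p = 0.176). When single mice were left out, the Xbp1 difference ran from 1.01 (without LKO HFD mouse 3) to 1.23 (without FF HFD mouse 1). It passed in 18 of 18 such fits, with an adjusted p of at most 0.00281.

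The genes of the 3 sensors were not called in any comparison. Ern1 ranged from 0.8302 to 2.82 RPKM in FF HFD and from 1.002 to 7.52 in LKO HFD mice, a log2 difference of 0.47 ± 0.35 (adjusted p = 0.489). It was at 1.39 to 3.14 RPKM in FF CD and 0.919 to 2.48 in LKO CD mice. Atf6 stayed between 6.79 and 11.3 RPKM over the 18 mice and differed by 0.17 ± 0.10 (adjusted p = 0.356), and Eif2ak3, at 1.997 to 4.34 RPKM, differed by 0.15 ± 0.13 (adjusted p = 0.546).

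In the arm of ATF4 and CHOP, Atf4 and Asns were higher in LKO than in FF mice under HFD, and the other 7 members were not called in that comparison. Atf4 (chr15:80255184-80257541, + strand) was at 48.4, 39.5, 38.2 and 30.5 RPKM in the FF CD mice and 55.2, 46.98, 46.03 and 44.4 in the LKO CD mice. Under HFD, Atf4 was at 33.6, 28.4, 25.1, 24.9 and 27.9 RPKM in FF and 41.4, 42.2, 52.5, 39.9 and 41.1 in LKO mice. LKO HFD mice lay above FF HFD mice without overlap, with mouse 3 apart from the other 4, and the difference was 0.62 ± 0.12 (fold 1.53, adjusted p = 0.00504). Atf4 was lower under HFD in FF mice (-0.46 ± 0.12, adjusted p = 0.0124), at a fold change of 1.38, and the diet difference in LKO mice was -0.15 (adjusted p = 0.502). Without LKO HFD mice 3 and 5 the genotype difference was 0.55 (adjusted p = 0.0525), and without FF CD mouse 1 the diet difference in FF mice was -0.35 (adjusted p = 0.0512).

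Asns encodes asparagine synthetase, a target of ATF4 with a weak signal in liver. Asns (chr6:7675169-7693254, - strand) was at 1.701, 1.28, 2.899 and 2.05 RPKM in the FF CD mice and 2.48, 1.39, 0.151 and 0.637 in the LKO CD mice. Under HFD, Asns was at 0.373, 0.0783, 0.136, 0.4596 and 0.263 RPKM in FF and 0.534, 1.95, 5.03, 0.685 and 3.67 in LKO mice. These values rest on 4 reads in FF HFD mouse 2 and on at most 333 reads in any mouse. All 5 FF HFD mice lay below all 5 LKO HFD mice, a difference of 1.22 ± 0.33 (adjusted p = 0.0456), and Asns was lower under HFD in FF mice (-1.22 ± 0.35, adjusted p = 0.0198). Without the 2 LKO HFD mice the genotype difference was 0.65 (adjusted p = 0.324). In fits without 1 mouse each, the Asns difference ran from 0.96 (without LKO HFD mouse 3) to 1.46 (without LKO HFD mouse 1). It passed in 5 of 18 such fits, with an adjusted p of at most 0.128. The diet difference of FF mice was -1.08 without FF CD mouse 3 (adjusted p = 0.0727). That of LKO mice was 0.56 in the fit of all mice (adjusted p = 0.374), and the interaction of Asns, 1.78, did not pass. Psat1, of serine synthesis, differed by 0.48 ± 0.19 (adjusted p = 0.173) between the genotypes under HFD and by 0.61 by diet in LKO mice (adjusted p = 0.0869). LKO HFD mouse 3 had its highest level, 3.09 RPKM, and without LKO HFD mice 3 and 5 these differences were 0.19 and 0.33 (adjusted p = 0.242 and 0.102).

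Atf3, a stress-induced transcription factor, was the only member that HFD raised in FF mice past both thresholds. Atf3 (chr1:191170296-191218039, - strand) was at 0.552, 0.465, 0.238 and 0.1995 RPKM in the FF CD mice and 0.732, 1.22, 0.582 and 0.3904 in the LKO CD mice. Under HFD, Atf3 was at 0.781, 1.15, 2.06, 1.28 and 1.12 RPKM in FF and 0.937, 0.529, 1.12, 0.539 and 1.03 in LKO mice. FF HFD mice were higher than FF CD mice by 0.73 ± 0.15 (fold 1.65, adjusted p = 0.00298), on 10 to 107 reads per mouse, whereas LKO HFD and LKO CD mice differed by 0.090 (adjusted p = 0.776). The difference between these effects, -0.64 ± 0.22, did not pass (adjusted p = 0.135). Sesn2, which restrains mTORC1 when amino acids are short, was higher under HFD in FF mice by 0.38 ± 0.12 (adjusted p = 0.0289) at a fold change of 1.31.

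Ddit3, the gene of CHOP, showed no called difference. Ddit3 (chr10:127290774-127296288, + strand) was at 6.28, 5.19, 2.92 and 2.92 RPKM in the FF CD mice and 5.18, 4.29, 3.49 and 4.34 in the LKO CD mice. Under HFD, Ddit3 was at 4.44, 4.09, 4.04, 4.73 and 4.35 RPKM in FF and 4.96, 4.84, 4.98, 4.62 and 3.44 in LKO mice. The 4 groups overlapped, with a log2 difference between genotypes under HFD of 0.056 ± 0.15 (adjusted p = 0.869). Trib3, which CHOP induces, differed by 0.045 ± 0.15 in that comparison, Chac1, which degrades glutathione, by -0.25 ± 0.14, and Ppp1r15a, which encodes GADD34 and restores translation, by 0.079 ± 0.12 (adjusted p = 0.901, 0.357 and 0.765). By diet in FF mice, Trib3 differed by 0.39 and Chac1 by 0.33 (adjusted p = 0.0998 and 0.139). These genes were at low levels, with Trib3 at 0.687 to 2.94 RPKM over the 18 mice, Chac1 at 0.384 to 1.68, Ppp1r15a at 2.81 to 5.99, Psat1 at 0.256 to 3.09 and Sesn2 at 0.852 to 2.69. Crebrf, outside the 4 classes, differed by at most 0.093 in log2 between the groups compared, at 1.88 to 3.11 RPKM.

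Set side by side, the chaperones had the largest class median between the genotypes under HFD and the arm of ATF4 and CHOP the smallest. Under HFD, the median log2 difference of LKO from FF mice was 0.70 over the 14 chaperones, 0.26 over the 7 degradation genes, 0.32 over the 4 sensors and factors and 0.056 over the 9 genes of the ATF4 and CHOP arm, against 0.030 over all genes tested. All 14 chaperones were above 0 in that comparison, though Dnajb9 fell below it under 2 other scalings, as were 6 of 7 degradation genes and 6 of 9 genes of the ATF4 and CHOP arm. HFD in LKO mice gave medians of 0.58, 0.15, 0.39 and 0.090 for the 4 classes in the same order (all genes 0.067), and HFD in FF mice gave -0.23, -0.24, -0.31 and 0.054 (all genes 0.071). Under CD the medians of LKO against FF mice were -0.13, -0.089, -0.22 and 0.046 (all genes 0.035). Without LKO HFD mice 3 and 5 the chaperone median was 0.42 between genotypes under HFD and 0.30 by diet in LKO mice. These medians describe members chosen as a list and carry no test. Changes of genes near or below 1 RPKM are understated on this scale, and most of the ATF4 and CHOP arm lay there. The chaperones lay at higher levels, so the class medians are not on equal terms. Asns, with means of 0.262 RPKM in FF HFD and 2.37 in LKO HFD mice, was fitted at 2.33-fold.

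The class level of a mouse, the median over its members of log2(RPKM + 1) less the FF CD mean, showed how mice differed within a group. For the chaperones it was 0.39, 0.075, -0.12 and -0.40 in the FF CD mice, -0.019, -0.18, -0.15 and -0.22 in the LKO CD mice, 0.10, -0.37, -0.39, -0.12 and -0.35 in the FF HFD mice and 0.035, 0.18, 0.87, 0.32 and 0.69 in the LKO HFD mice. For the ATF4 and CHOP arm it was 0.090, 0.025, -0.073, 0.16 and 0.060 in the FF HFD mice and 0.10, 0.17, 0.43, 0.18 and 0.16 in the LKO HFD mice. The chaperone level thus spread widely within LKO HFD mice and, in FF CD mice, was highest in mouse 1, while the level of the ATF4 and CHOP arm lay between -0.19 and 0.43 over the 18 mice. Chaperone and degradation members with an ERSE in the window (9) had a median log2 difference of 0.70 of LKO from FF mice fed HFD, with 4 called, and those with a window but no ERSE (9) had 0.26, also with 4 called.

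**Figure D4:**
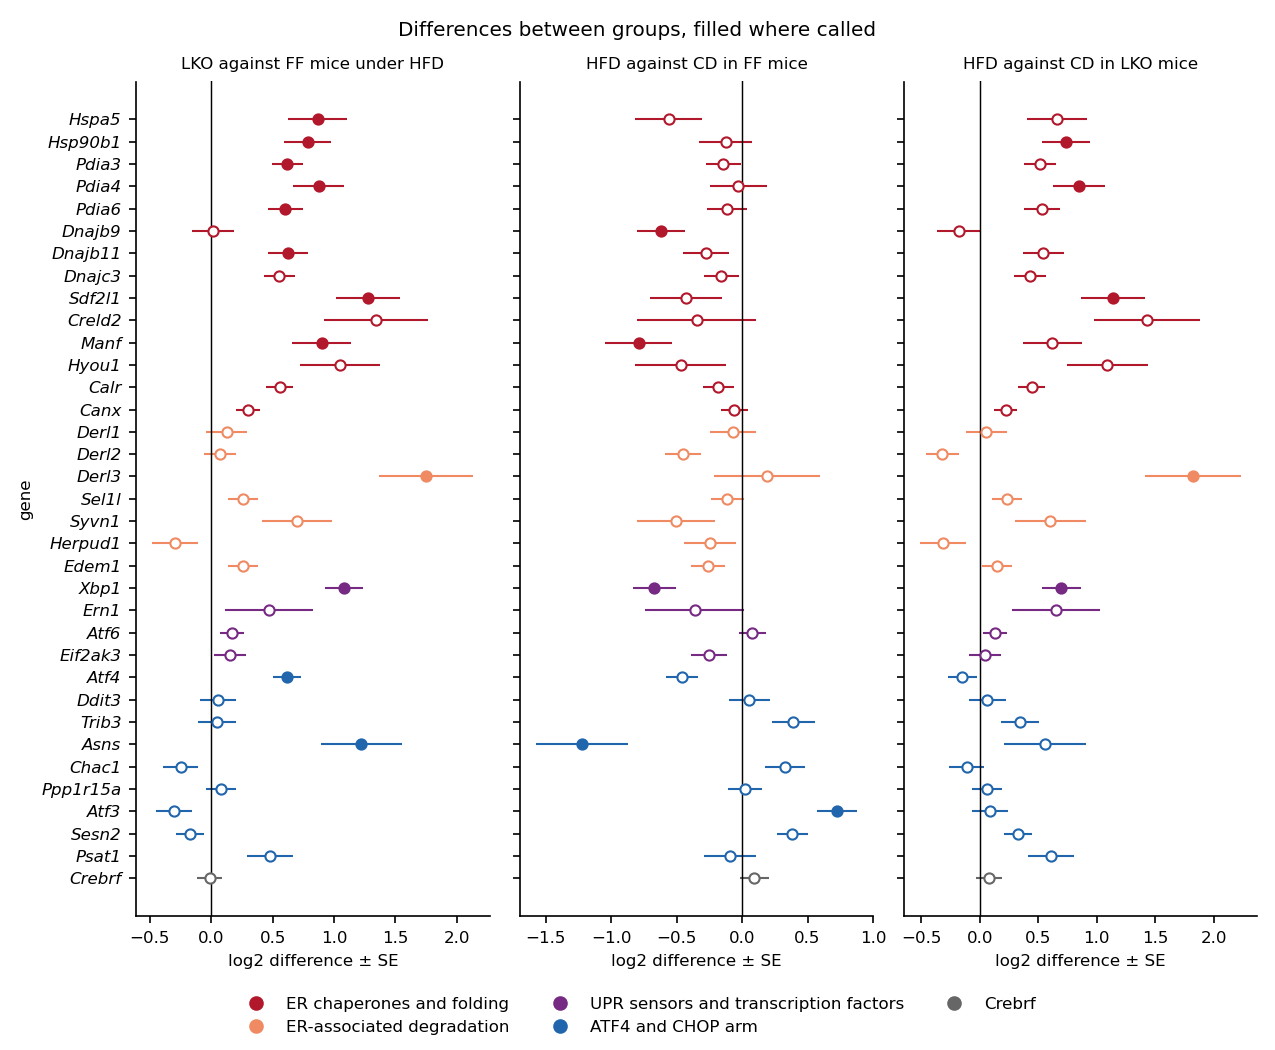
Fitted log2 differences (points) with their SE (bars) for the 35 members, by class, in 3 panels: LKO against FF mice under HFD, HFD against CD in FF mice and HFD against CD in LKO mice, with filled points where a difference was called. Under HFD all 14 chaperones lie right of 0 in LKO against FF mice, Dnajb9 nearest to it at 0.015 with a sign that turned under 2 other scalings, and the members of the ATF4 and CHOP arm lie on both sides with a median of 0.056.

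To ask how members varied within a group, where neither diet nor genotype differs, the deviation of each mouse from its group mean of log2(RPKM + 1) was compared with that of Hspa5 over the 18 mice. Hspa5 was permuted within groups 100000 times, for all 11089 other genes tested, the 34 other members among them, and p-values were adjusted over all of these genes. For Dnajb11 Pearson's r was 0.97 and Spearman's rho 0.96 (adjusted permutation p = 0.0185 and 0.0222). For Syvn1 Pearson's r was 0.94 and Spearman's rho 0.95 (adjusted permutation p = 0.0185 and 0.0246). For Sel1l Pearson's r was 0.92 and Spearman's rho 0.85 (adjusted permutation p = 0.0488 and 0.175). The unadjusted p of Dnajb11 was the smallest these permutations can give, 1e-05. The adjusted p of r was under 0.05 with a positive r for 12 of 34 members, against 0.18% of all genes (20 genes, the 12 among them). They were 9 of the 13 other chaperones (Hsp90b1, Pdia3, Pdia4, Pdia6, Dnajb11, Dnajc3, Sdf2l1, Creld2 and Hyou1) and Sel1l, Syvn1 and Edem1 of 7 degradation genes, and for Hsp90b1 and Sel1l the adjusted p of rho was 0.0954 and 0.175. No sensor or factor and no gene of the ATF4 and CHOP arm passed. In that arm Atf4 came nearest, with Pearson's r of 0.77 and Spearman's rho of 0.57 (adjusted permutation p = 0.166 and 0.395). The chaperones Calr and Canx, with r of 0.79 and 0.81, did not pass either (adjusted permutation p of r = 0.2 for each). An unadjusted p under 0.05 with a positive r was seen for 20 members, Xbp1 and Atf4 among them, against 7.8% of all genes. The median r was 0.92 over the 13 other chaperones, 0.72 over the degradation genes, 0.49 over the sensors and factors and 0.22 over the ATF4 and CHOP arm, against 0.11 over all genes. For Xbp1 Pearson's r was 0.59 and Spearman's rho 0.52 (adjusted permutation p = 0.406 and 0.470). For Ddit3 Pearson's r was 0.45 and Spearman's rho 0.48 (adjusted permutation p = 0.604 and 0.525), and for Herpud1 r was -0.048. Without FF CD mouse 1 and LKO HFD mouse 3, the 2 mice farthest from the median of Hspa5, r was 0.96 for Dnajb11, 0.92 for Syvn1, 0.58 for Xbp1, 0.60 for Atf4 and 0.22 for Ddit3. The chaperone median was then 0.90 against -0.025 over all genes, and no gene passed the adjusted p, while 17 members had an unadjusted p under 0.05 and a positive r. No gene passed either without LKO HFD mice 3 and 5, with medians of 0.88 over the chaperones and 0.14 over all genes and 17 members under 0.05 unadjusted. With 100000 permutations, a lone gene at the smallest p cannot pass over 11089 genes. The mice of a group share no label of litter or day, and the deviations of one mouse share its library.

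**Figure D5:**
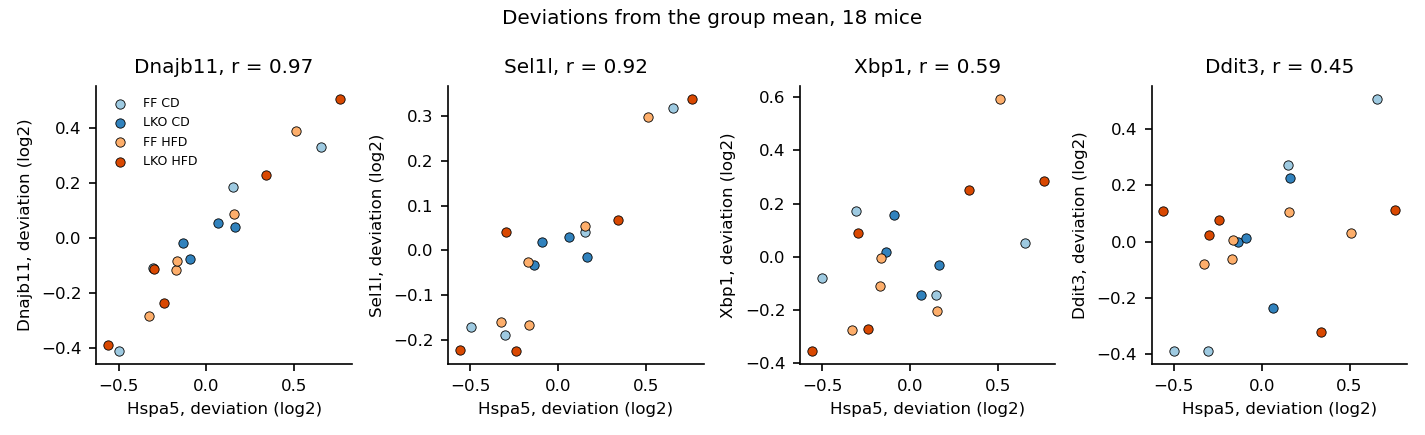
Deviation of each of the 18 mice from its group mean of log2(RPKM + 1) for Hspa5 (x axis) against Dnajb11, Sel1l, Xbp1 and Ddit3 (y axes, one panel each), with colours for the 4 groups. The points of Dnajb11 and Sel1l follow those of Hspa5 closely (r = 0.97 and 0.92), those of Xbp1 less so (r = 0.59), and Ddit3 scatters (r = 0.45).

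Further genes of these pathways were taken from 3 lists. Of 22 other genes of ER folding and translocation, Txndc11, Fkbp11 and Pdia5 were called lower under HFD in FF mice, with log2 differences of -0.75 ± 0.10, -0.88 ± 0.18 and -0.80 ± 0.17 (adjusted p = 0.000103, 0.00288 and 0.00245), and 6 were lower by the adjusted p alone, where 1.49% and 4.79% of all genes were. Pdia5, a disulfide isomerase, was at 18.01, 15.9, 10.8, 17.2 and 15.7 RPKM in the FF HFD mice and 18.2, 27.4, 37.4, 30.9 and 29.3 in the LKO HFD mice, a difference of 0.83 ± 0.16 (adjusted p = 0.00536), and it was the only one of the 22 called between the genotypes under HFD, against 0.902% of all genes called higher. The diet effects of LKO and FF mice differed for Pdia5 by 1.26 ± 0.23 (adjusted p = 0.00546) and for Fkbp11, an ER prolyl isomerase, by 1.05 ± 0.26 (adjusted p = 0.0361), 2 of 22 genes against 0.947% of all genes. The median of the list between the genotypes under HFD was 0.19. None of 20 other genes of ER-associated degradation and export was called by limma in any of the 5 comparisons, although 2 were higher and 2 lower under HFD in FF mice by the adjusted p alone, against 15.8% and 4.79% of all genes. Their median was 0.13 between the genotypes under HFD.

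Of 35 other genes of the integrated stress response, 28 were tested and their median difference between the genotypes under HFD was 0.19, with none called and 2 higher by the adjusted p alone, against 2.1% of all genes. HFD raised Fgf21, a liver hormone of fasting and amino acid shortage, in FF mice by 1.24 ± 0.32 (adjusted p = 0.0100) and Gdf15, a stress hormone that lowers food intake, by 1.10 ± 0.27 (adjusted p = 0.00805), the 2 of 28 called higher, against 5.11% of all genes. Fgf21 was at 3.13, 2.28, 1.44 and 1.25 RPKM in the FF CD mice, 6.46, 5.84, 6.64, 6.24 and 4.61 in the FF HFD mice and 4.33 to 15.1 in LKO HFD mice, whose difference from FF HFD mice was 0.36 (adjusted p = 0.539). Gdf15 was at 0.128 to 0.505 RPKM in FF CD, 1.03 to 2.92 in FF HFD and 1.002 to 5.63 in LKO HFD mice. Nupr1, a stress-induced chromatin protein, was the only gene of the list called by diet in LKO mice, where HFD raised it by 0.68 ± 0.17 (adjusted p = 0.0373), 1 of 28 against 0.965%.

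Cells with much ER, such as plasma cells and pancreatic acinar cells, express the chaperones strongly, and their markers were read beside the result. Of 7 acinar genes, 6 averaged at most 0.0355 RPKM in every group (Prss2, Cpa1, Cpb1, Pnlip, Ctrb1 and Pdia2), and the summed level, 2.14 to 7.05 RPKM in FF HFD and 3.89 to 10.7 in LKO HFD mice, came almost entirely from Cela1. Cela1 was lower under HFD in FF mice (-1.08, adjusted p = 0.0148) and differed by 0.74 between LKO and FF mice under HFD (adjusted p = 0.151). Of 7 B and plasma cell genes, Mzb1 reached at most 0.533 RPKM, Jchain 2.07 and Cd79a 1.17, Tnfrsf17 was at 0 in FF CD, LKO CD and LKO HFD mice, and the sum of 35.8 to 56.9 RPKM in FF HFD and 42.05 to 53.01 in LKO HFD mice came mostly from Sdc1. The 7 hepatocyte genes summed to 35364 to 45509 RPKM in FF HFD and 37518 to 44527 in LKO HFD mice, mostly from Alb. Of them 4 lay above 0 and 3 below in LKO against FF mice under HFD, from -0.48 to 0.64 with a median of 0.022. Apoa1, the highest, was the only one called (0.64 ± 0.14, adjusted p = 0.0169). The 5 stellate cell and fibroblast genes summed to 72.8 to 113 and 50.97 to 101 RPKM, with Col1a1 and Col3a1 lower in LKO mice (-1.15 and -1.24, adjusted p = 0.0157 and 0.0109). The 7 Kupffer cell and macrophage genes summed to 62.4 to 130.4 RPKM in FF HFD and 65.9 to 122 in LKO HFD mice, and the 5 endothelial genes to 31.8 to 50.3 and 24.8 to 33.9. The 5 cholangiocyte genes summed to 17.5 to 61.5 and 15.3 to 65.9 RPKM in the same groups, the 4 neutrophil genes to 2.13 to 7.18 and 3.32 to 6.29, the 4 T and NK cell genes to 0.354 to 1.498 and 0.632 to 1.74, and the 3 adipocyte genes to 0.167 to 2.13 and 0.0955 to 2.42. Of the last 6 lists, 7 of 7, 5 of 5, 3 of 5, 2 of 4, 0 of 4 and 1 of 3 genes passed the filter, in that order, and none of the 18 tested was called between the genotypes under HFD. The T and NK cell genes were thus not tested. All 7 Kupffer cell, all 5 endothelial and all 5 stellate cell genes lay below 0 in LKO against FF mice, with medians of -0.17, -0.33 and -0.27. Of the endothelial genes 3 had an unadjusted limma p under 0.05. Of the cholangiocyte genes 1 lay above 0 and 2 below, the 2 neutrophil genes above and the 1 adipocyte gene below. The part of the other cell types in the result was not tested.

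Markers of other cell types also moved with diet in FF mice, the comparison in which Dnajb9, Manf, Xbp1 and Asns were lower and Atf3 higher. Of 5 endothelial genes, 3 were called higher under HFD and all 5 lay above 0, with Lyve1 at 1.38, Pecam1 at 1.09 and Clec4g at 0.85 (adjusted p = 0.0117, 0.000825 and 0.0190), and they summed to 11.99 to 25.4 RPKM in FF CD and 31.8 to 50.3 in FF HFD mice, with no overlap. Of 7 Kupffer cell and macrophage genes, Adgre1 and Vsig4 were called higher and all 7 lay above 0, with sums of 52.5 to 73.05 RPKM in FF CD and 62.4 to 130.4 in FF HFD mice. Of 5 stellate cell and fibroblast genes, Col1a1 and Col3a1 were called higher (1.16 and 1.21, adjusted p = 0.00539 and 0.00452) and all 5 lay above 0, with sums of 58.02 to 83.6 RPKM in FF CD and 72.8 to 113 in FF HFD mice. Of 4 neutrophil genes 2 were tested and S100a9 was called higher, with sums of 1.08 to 2.27 RPKM in FF CD and 2.13 to 7.18 in FF HFD mice. Of 7 hepatocyte genes, 2 lay above 0 and 5 below, and Apoa1 and Cps1 were called lower (-0.72 and -1.24, adjusted p = 0.00276 and 0.000157). The sums, mostly from Alb, were 31762 to 40186 RPKM in FF CD and 35364 to 45509 in FF HFD mice. The sums of the acinar genes were 7.42 to 15.5 RPKM in FF CD and 2.14 to 7.05 in FF HFD mice, where Cela1 was called lower. Of the 3 tested cholangiocyte genes, the 4 tested B and plasma cell genes and the 1 tested adipocyte gene, none was called, with sums of 15.98 to 25.97 RPKM in FF CD and 17.5 to 61.5 in FF HFD mice, 27.1 to 49.7 RPKM in FF CD and 35.8 to 56.9 in FF HFD mice and 0.0463 to 0.2704 RPKM in FF CD and 0.167 to 2.13 in FF HFD mice, and the untested T and NK cell genes summed to 0.958 to 1.41 RPKM in FF CD and 0.354 to 1.498 in FF HFD mice. Of 9 immediate early genes tested, Jun, Egr1 and Btg2 were called higher (1.40, 0.86 and 0.90), with sums of 52.3 to 80.4 RPKM in FF CD and 71.03 to 89.9 in FF HFD mice. Hspb1 was called higher (1.38, adjusted p = 0.00517) among 6 cytosolic heat shock genes tested. In bulk liver, a change in the share of a cell type and a change in RNA per cell cannot be told apart, and the part of these cell types in the diet results of FF mice was not tested.

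Cytosolic heat shock and clock genes also varied among the LKO HFD mice. Hsp90aa1 was at 66.4, 69.8, 205, 145 and 182 RPKM in the 5 LKO HFD mice, Hspb1 at 11.5, 10.2, 45.7, 31.1 and 24.9, and Per1, a clock gene, at 5.73, 4.59, 1.49, 2.86 and 1.99. The first 2 were higher, and Per1 lower, in mice 3, 4 and 5 than in mice 1 and 2, while chaperones were highest in mice 3 and 5. FF CD mouse 1, with the highest chaperones of its group, had 15.5 RPKM of Hspa1b and 24.6 of Hsph1, against 6.798, 3.56 and 1.78, and 15.2, 8.57 and 5.75, in the other 3. The 7 cytosolic heat shock genes summed to 493 to 563 RPKM in FF HFD and 392 to 648 in LKO HFD mice, the 12 clock genes to 114 to 155 and 113 to 177, and the 11 immediate early genes to 71.03 to 89.9 and 54.95 to 81.2, with Egr1 higher (1.02, adjusted p = 0.0403) and Dusp1 lower in LKO mice (-1.50, adjusted p = 9.95e-05). The part of these genes in the result was not tested.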

How the data were processed

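Liver RNA of 18 male mice (FF CD, LKO CD, FF HFD, LKO HFD) was sequenced, and grouping followed the sample titles. The authors aligned reads with HISAT2 2.0.4 to mm10 and deposited one file per mouse with the RPKM of each gene; the tools named in the submitters' processing notes include Partek, while the annotation, counting rule and strand setting are not given in the sources used here, and the labels describe both a small RNA kit and standard RNA-seq. No read counts were used. Read numbers were inferred from the RPKM steps of 2436 single-exon genes at values under 0.2 RPKM, and intervals are not given.

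RPKM were analysed as log2(RPKM + 1) with limma 3.58.1 in R 4.3.3 (lmFit, eBayes with trend), all 4 groups in one fit, over the 11090 of 25266 genes with a mean of at least 0.5 RPKM. The 5 contrasts were diet within genotype, genotype within diet, and their interaction. P-values were adjusted over all genes by Benjamini-Hochberg, and a gene was called at an adjusted p under 0.05 with a fold above 1.5. Single members were also compared by exact permutation over mice. Covariation with Hspa5 used permutations within groups and, in place of the planned adjustment over the members, one over all genes. Given in full were members called in any contrast, the 3 of each class with the largest absolute difference, and Hspa5, Xbp1, Atf4 and Ddit3; of each other pathway list, up to 4 called genes were named. Marker genes were named where a result turned on them. The scripts were tested on simulated data. Members and lists were chosen with earlier results of these data known. Results were recomputed with a pseudocount of 0.1, without the filter, with a mean of at least 1 RPKM, after rescaling RPKM to one sum, after quantile normalization, with each mouse centred on its median, on the compared groups alone, with a replicate block, by the adjusted p alone, leaving out each mouse, and, added after the values were seen, leaving out LKO HFD mice 3 and 5. Promoters came from RefSeq and were searched by letters on both strands. Positions of whole genes came from GENCODE.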

Additional observations from a re-analysis of the deposited data

Results flagged for a closer look

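In 7 of 92 groups of mice examined among the named members, 1 mouse lay far from the rest of its group by Dixon's criterion, where chance gives about 1 in 20. FF HFD mouse 1 was high for Manf, at 70.8 RPKM, and for Syvn1, at 13.5 RPKM, against 35.2 to 41.7 and 7.56 to 8.696 RPKM in the other 4 mice. LKO CD mouse 3 had 2.48 RPKM of Ern1, against 0.919 to 1.02 in the other 3. LKO HFD mouse 3 had 52.5 RPKM of Atf4, and LKO HFD mouse 5 had 3.44 RPKM of Ddit3, the lowest of its group. For Crebrf, FF HFD mouse 3 was at 2.28 RPKM against 2.77 to 2.96 in the other 4, and LKO HFD mouse 5 at 2.15 RPKM against 2.8001 to 2.93.

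The effect of HFD differed between LKO and FF mice for 4 members by limma's interaction term, with differences of log2 effects of 1.57 for Sdf2l1 (adjusted p = 0.0361), 1.41 for Manf (adjusted p = 0.0386), 0.63 for Calr (adjusted p = 0.0488) and 1.37 for Xbp1 (adjusted p = 0.00275). For each, the group means of LKO mice were higher under HFD than under CD and those of FF mice lower. Of these 4, only Xbp1 passed without LKO HFD mice 3 and 5 (1.19, adjusted p = 0.0156). Psat1, which had not passed in the fit of all mice, passed the adjusted p there but was not called (0.42, adjusted p = 0.0496).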

How the results depend on the processing

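The number of members called between the genotypes under HFD, 12 in the fit reported, was 6 with no filter, 3 with only the groups compared, 1 without LKO HFD mice 3 and 5, and 3 to 16 with single mice left out. By diet in LKO mice it was 5, and became 0 with no filter, with only the groups compared and without the 2 mice, 2 with each mouse centred on its median, and 0 to 11 with single mice left out. By diet in FF mice it was 5, and became 3 with RPKM rescaled to the same sum or only the groups compared, 8 by the adjusted p alone, and 3 to 6 with single mice left out. The interactions called, 4, became 1 with no filter and without the 2 mice, and 1 to 12 with single mice left out. Under CD the count stayed 0 in every alternative run. Without the 2 mice, 0.857% of all genes were called between the genotypes under HFD, 0.0541% by diet in LKO mice and 1.46% for the interaction. For the other refits the share of all genes called is not given, so their member counts cannot be set against it.

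Replicate numbers do not pair the mice: over 25 pairs of same-numbered mice, deviations from group means had a median correlation of 0.054 (-0.17 to 0.33). With the replicate block the counts were 4 and 3 by diet in FF and LKO mice, 9 between genotypes under HFD and 3 for the interaction.

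The chaperone median by diet in LKO mice became 0.30 without the 2 mice (0.45 to 0.68 with single mice left out), and that between genotypes under HFD 0.42 (0.56 to 0.84). The median of the ATF4 and CHOP arm became -0.038 by diet in FF mice with centring (0.027 to 0.22 with single mice left out), and by diet in LKO mice 0.20 with a pseudocount of 0.1 or a mean of at least 1 RPKM and -0.0060 with centring (0.038 to 0.22). Dnajb9 between genotypes under HFD turned to -0.040 when rescaled and -0.022 when centred (-0.050 to 0.077 with single mice left out). The share of all called genes that was higher moved by diet in LKO mice from 75.9% to 55.2% after quantile normalization and 45.5% after centring, and by diet in FF mice from 77.5% to 65.4% and 63.5%. After rescaling it moved from 43.5% to 33.2% between genotypes under HFD, from 40.0% to 51.6% under CD and from 38.7% to 27.3% for the interaction. The member results followed numbered 34, among them Dnajb9, Creld2 and Hyou1 between genotypes under HFD, which had not passed in the fit reported. Of the rest, 22 no longer passed without the 2 mice and 17 with no filter. With only the groups compared, where 30 of the 34 could be fitted, 20 no longer passed. The pseudocount, rescaling and quantile normalization each cost 1, centring 6 and the replicate block 8. Apart from the sign of Dnajb9, the other results kept their direction and side of the threshold. With p-values adjusted over all genes, a choice made after the values were seen, 12 members varied with Hspa5, and 0 without the 2 mice farthest from its median or without LKO HFD mice 3 and 5; an unadjusted p under 0.05 with a positive r was held by 20, 17 and 17. The cause of these changes was not tested. No scaling moved the median of all genes by over 0.1. Asns rests on as few as 4 reads and Derl3 on 15.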
